A study of Mus musculus with 18 samples.

Results

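Intraflagellar transport (IFT) and BBSome genes code for the particles that carry cargo along the axoneme of cilia and flagella. The members were taken by symbol: every gene named Ift or Bbs followed by a digit, plus Wdr19, Wdr35, Ttc21b, Ttc26, Ttc30a1, Ttc30b, Traf3ip1, Cluap1, Arl6 and Mkks. The rule found 33 of the 46603 genes in the count table, and no measured value entered it. They were followed through 18 RNA-seq libraries, 3 in each of 6 germ cell populations sorted from the testis. In stage order these are Undiff.Spg and Diff.Spg, by common usage undifferentiated and differentiating spermatogonia; PreL, LZ and PD, by common usage spermatocytes in preleptotene, in leptotene or zygotene, and in pachytene or diplotene; and RS, round spermatids. No label writes the abbreviations in full. All groups came from adult male mice of strain C57BL/6 carrying the Stracre-GAG-tdTomato transgenes, with no untreated or wild-type group, and the labels give neither age nor the gate of each population. Nor do they say that replicates came from separate animals, so p-values measure the spread between these libraries only, which may be technical.

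IFT trains are built from 2 complexes. IFT-B, with a core and a peripheral part, works with kinesin-2 on the way to the tip, and IFT-A works with the dynein-2 motor on the way back and in bringing membrane proteins into the cilium. The BBSome, a coat-like complex, links membrane cargo to the trains; the GTPase Arl6 recruits it to membranes, and the chaperonin-like proteins Bbs10, Bbs12 and Mkks help to assemble it. In the mouse testis the flagellar axoneme starts to grow in round spermatids. Mice that lack Ift20, Ift140 or Ift172 in germ cells, or that lack Bbs2, Bbs4 or Mkks, make sperm with missing or malformed flagella.

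Many ciliary genes carry an X-box, the binding motif of RFX transcription factors, near their start, so the promoters of the members were read for it. RefSeq promoter windows on GRCm38.p6, from 250 bases before to 50 bases after the start, were found for 28 of the 33 members. No entry was matched for Ift80, Ift81, Ift122, Ttc30b and Ift88os. A 14-letter form, GTNNCC followed by any 3 letters and GNNAC, searched on both strands, lay in the windows of 7 of the 28 members (25%), against 5.26% of 27025 genes. The 6-letter core GTTGCC, also searched on both strands, lay in 11 of the 28 (39.3%), against 14.1% of genes, and it begins the 14-letter match in Bbs1, Bbs7, Ift57 and Ttc26. A match describes the letters only and was not tested for binding. The 4 windows below are examples from the BBSome (Bbs7), the IFT-B core (Ift22 and Ttc26) and the IFT-B periphery (Ift57); each is the 250 bases before the RefSeq start, which for Bbs7, Ift57 and Ttc26 lies inside the gene as GENCODE draws it, 5′ to 3′ on the gene's strand, with the match in capitals.
Bbs7, chr3:36613390-36613639, minus strand: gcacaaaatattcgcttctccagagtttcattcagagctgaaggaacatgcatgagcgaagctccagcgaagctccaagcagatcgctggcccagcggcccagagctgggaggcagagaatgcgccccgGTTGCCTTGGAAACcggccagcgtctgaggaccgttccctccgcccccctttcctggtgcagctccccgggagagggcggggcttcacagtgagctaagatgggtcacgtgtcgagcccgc
Ift22, chr5:136907900-136908149, plus strand: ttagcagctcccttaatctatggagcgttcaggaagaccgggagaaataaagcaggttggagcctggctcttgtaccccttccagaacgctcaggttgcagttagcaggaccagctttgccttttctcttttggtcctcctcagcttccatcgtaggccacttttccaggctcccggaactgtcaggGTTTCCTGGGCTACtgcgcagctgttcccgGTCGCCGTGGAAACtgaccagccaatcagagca
Ift57, chr16:49699044-49699293, plus strand: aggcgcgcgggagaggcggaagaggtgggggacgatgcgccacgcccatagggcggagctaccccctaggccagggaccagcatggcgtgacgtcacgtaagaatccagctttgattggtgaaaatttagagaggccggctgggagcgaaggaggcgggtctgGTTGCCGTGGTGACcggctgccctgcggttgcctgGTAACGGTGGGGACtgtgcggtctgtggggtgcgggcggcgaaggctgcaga
Ttc26, chr6:38381274-38381523, plus strand: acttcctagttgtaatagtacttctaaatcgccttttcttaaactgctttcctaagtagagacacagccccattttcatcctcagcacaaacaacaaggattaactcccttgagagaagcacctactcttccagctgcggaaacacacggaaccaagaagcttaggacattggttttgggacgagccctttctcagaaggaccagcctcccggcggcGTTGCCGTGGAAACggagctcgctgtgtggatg
The matches in Bbs1 and Bbs4 lie just after the start, and that of Wdr19 lies 34 bases before it; they are given as the match alone.
Bbs1, chr19:4906613-4906626, minus strand: GTTGCCAAGGCGAC
Bbs4, chr9:59353472-59353485, minus strand: GTCGCCCGGGAAAC
Wdr19, chr5:65199662-65199675, plus strand: GTCTCCTGGGTGAC
The 7 genes with a match were all higher in PD than in LZ, as were 29 of the 32 members tested. They differed over the whole course, as described with each complex. Bbs7, Ift22 and Ift57 ended far above their level in Undiff.Spg, whereas Bbs4 differed little between RS and Undiff.Spg.

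The libraries held 11777947 to 16607462 counts each. Levels are given as CPM, the usual depth-scaled unit, after TMM scaling of the library totals. A gene was called at an adjusted p under 0.05 in edgeR's quasi-likelihood test over all 18547 genes expressed enough to test. Marker genes of the named stages peaked mostly where the labels place them, with exceptions. The PreL markers Meioc, Rec8 and Prdm9 summed to 542 to 661 CPM in PreL and to 1151 to 1241 CPM in LZ, and the Diff.Spg marker Dmrtb1 averaged 1737 ± 110.3 CPM in PD and 1706 ± 73.2 CPM in RS (SD, n = 3). PreL replicate 2 and LZ replicate 2 stood apart: the PD markers Piwil1, Pgk2, Ldhc and Adam2 summed to 245 and 230 CPM there, against 23.1 to 59.2 CPM in the other PreL and LZ libraries and 8454 to 9360 CPM in PD. Sertoli markers summed to at most 29.4 CPM in any library. Markers of the multiciliated epithelium of the efferent ducts, which could carry these transcripts, summed to 501 to 568 CPM in RS and to 35.8 to 44.3 CPM in PD; almost all of this was Foxj1, at 532 ± 35.2 CPM in RS, whereas Mcidas had 0, 0 and 0 CPM and Gmnc 0.313, 0.441 and 0.777 CPM in the RS libraries. The part of such cells in the RS values was not tested, nor was that of late transcripts in PreL replicate 2 and LZ replicate 2; the values without both libraries are given beside each step where a call changed.

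The members together were low in the 3 early populations, slightly higher in LZ and several-fold higher in PD and RS. Their summed level was 1013 to 1075 CPM in Undiff.Spg, 919.8 to 927 in Diff.Spg, 954 to 1026 in PreL, 1344 to 1486 in LZ, 6711 to 7379 in PD and 6384 to 6548 in RS. The lowest PD or RS library stood above the highest LZ library by more than 4 times. Ift140 and Ift172 alone made up much of the late sum, yet without them the other 31 members still summed to 1238 to 1368 CPM in LZ, 4389 to 4883 in PD and 4205 to 4391 in RS. In bulk RNA, a population with fewer cells of a type and one with less RNA per cell cannot be told apart.

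Of the 33 members, 32 were tested, and each of the 32 differed among the 6 groups, as did 99% of all genes tested. Ift88os, an RNA antisense to Ift88, did not pass the filter on low values; its highest level was 1.07 CPM, in LZ replicate 1. Fits with fewer libraries or no filter on low values did test it, with at most 14 counts in any library. Of 19 such fits, which share most of their libraries, 17 called it lower in PD than in LZ (log2 fold change -1.998 to -1.03 over the 19). The fit of all 18 libraries without the filter did not call it (-1.284, adjusted p = 0.0638), nor did the fit without PD replicate 1 (adjusted p = 0.0917). Ift88 rose there by 0.42, a call lost in 8 alternatives. All 18 fits of LZ against PreL called Ift88os higher (2.703 to 4.525), and so did 16 of 18 of RS against Undiff.Spg (1.277 to 2). In these 2 contrasts Ift88 was higher too (1.631 and 2.044). By group mean, 17 members were highest in PD, 14 in RS and 1, Mkks, in Undiff.Spg; none was highest in Diff.Spg, PreL or LZ. Among all genes tested, 16.7% were highest in PD, 27.1% in RS and 19.5% in Undiff.Spg. The lowest mean fell in Undiff.Spg for 8 members, in Diff.Spg for 11, in PreL for 5, in LZ for 6, and in PD and RS for 1 each (Bbs12 and Mkks). The PD peak held 4 IFT-A, 6 IFT-B core, 2 IFT-B peripheral and 4 BBSome genes and Bbs10, and the RS peak held 2, 4, 4 and 2 of these complexes together with Bbs12 and Arl6.

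**Figure D1:**
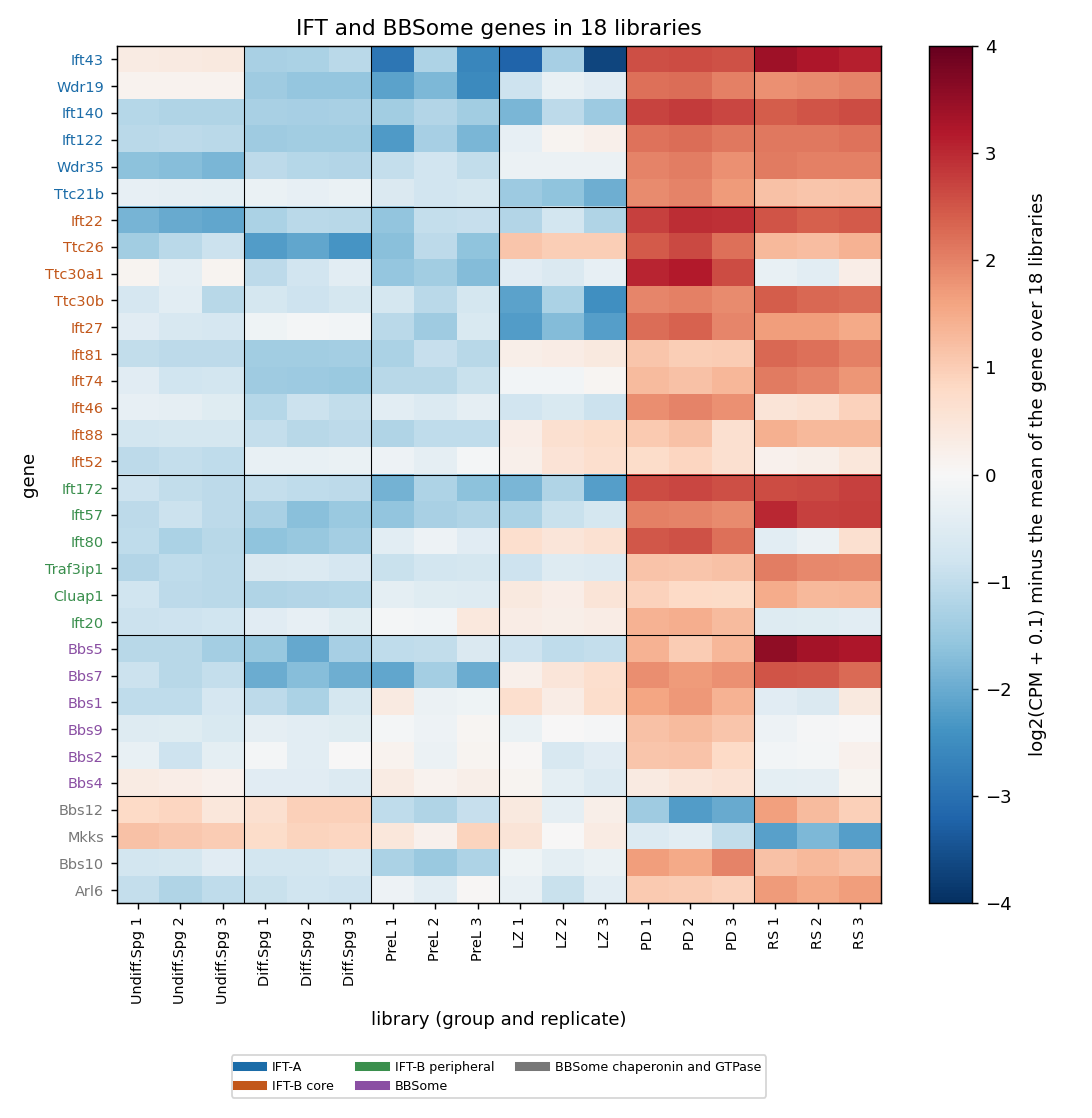
Heat map of log2(CPM + 0.1) minus the gene's mean over the 18 libraries for the 32 tested members, with genes down the page by complex and libraries across in stage order. Most rows turn from blue (below the mean) to red (above it) between LZ and PD, whereas Mkks turns the other way and Bbs12 is lowest in PD.

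The step of PD against LZ asks what changes between early and late meiotic prophase. Nearly the whole transport machinery was higher in PD: 29 of the 32 members rose and 2 fell, Bbs12 and Mkks, both of the chaperonin-like group. Of all genes tested, 42.1% were higher and 40.8% lower in PD at the same threshold. The median log2 fold change was 1.79 over the members and 0 over all genes, and 25 members rose and 1 fell at least 2-fold, where 36.8% and 35% of all genes did. For 28 members every PD library lay above every LZ library, and for 2 every PD library lay below, where 42.3% and 41.5% of all genes did. The member not called was Ift52. With scaling by total library size alone, which moves the median of all genes to -0.352, 26 members were higher and the 2 were still lower. Without PreL replicate 2 and LZ replicate 2 all 29 and both 2 kept their calls, and Ift88os was tested and called lower.

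The step of RS against PD, from late prophase to the haploid cell, held changes in both directions. In RS, 10 of the 32 members rose and 15 fell, where 30.3% of all genes were higher and 28.6% lower. With TMM scaling the rises were thus near the share of all genes, and the falls above it. The median log2 fold change was -0.23 over the members and 0 over all genes. At least 2-fold, 3 members rose and 9 fell, where 24.5% and 19.7% of all genes did. For 12 members every RS library lay above every PD library, and for 17 every RS library lay below, where 34.8% and 32.9% of all genes did. In IFT-A 1 of 6 genes was called, whereas the IFT-B core, the IFT-B periphery, the BBSome and the assembly factors each held genes that rose and genes that fell. With scaling by total library size alone, 8 were higher and 17 lower, the added ones being Ift140 and Wdr19, and no called member changed direction. The split was more even with RLE scaling, at 11 higher and 14 lower, and with DESeq2, at 12 and 13. Both move the median of all genes to 0.138. Ift22 lost its fall in both, and Ift27 with DESeq2.

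**Figure D2:**
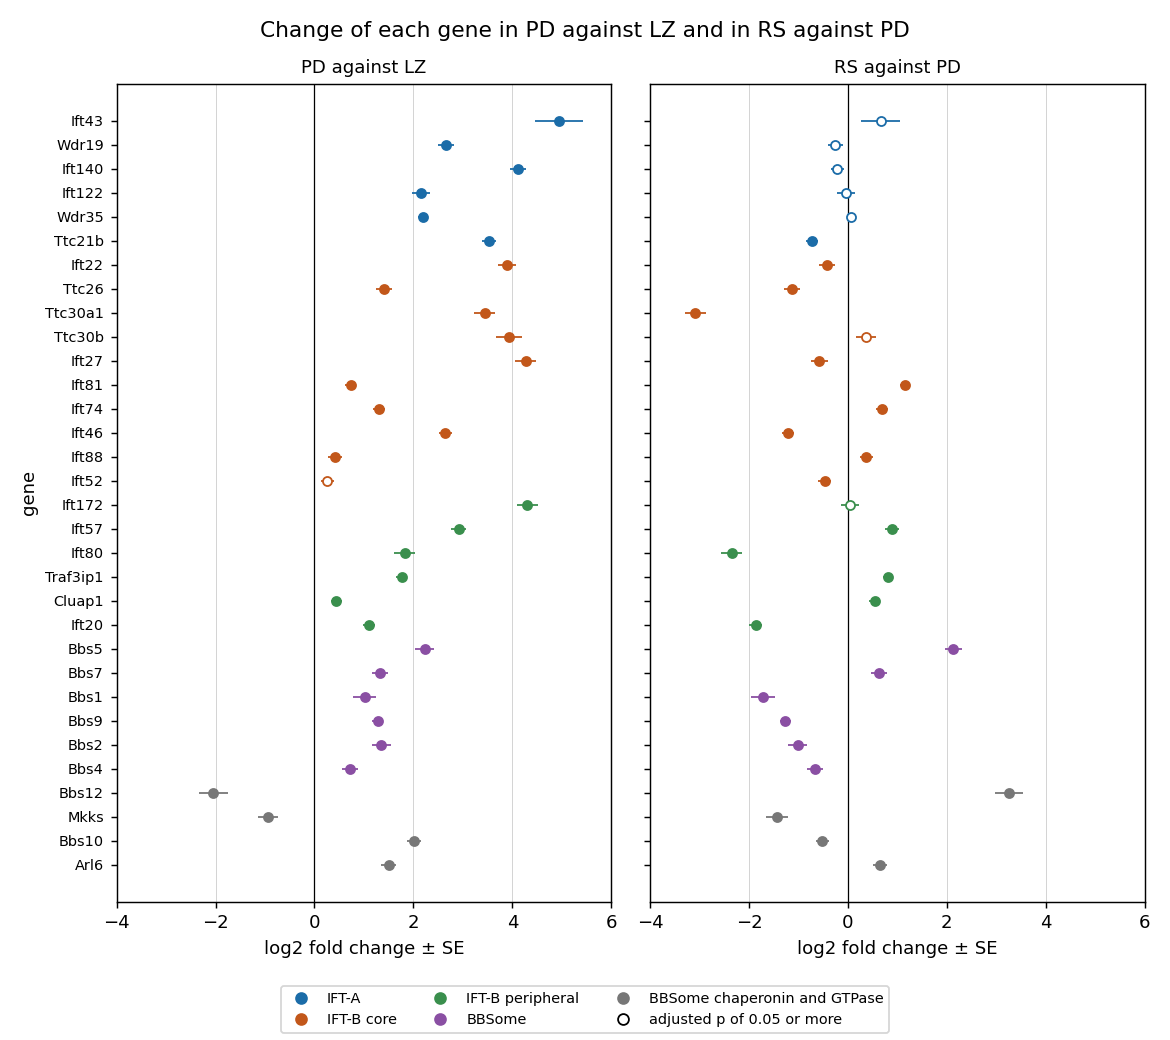
Log2 fold change of each of the 32 tested members in PD against LZ (left) and in RS against PD (right), as points with standard error bars, coloured by complex and open where the adjusted p was 0.05 or more. In the left panel all but Bbs12 and Mkks lie right of 0, and in the right panel the points spread from -3.08 for Ttc30a1 to 3.25 for Bbs12.

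In IFT-A, all 6 subunits rose in PD, with a median log2 fold change of 3.10, and only Ttc21b fell in RS. The complex summed to 333 to 436 CPM in LZ, 3159.7 to 3533 in PD and 2955 to 3089.5 in RS. Ift43 (ENSMUSG00000007867, chr12:86082541-86162459, plus strand), a small subunit that stabilises the complex, had 26.1, 26.5 and 27.4 CPM in Undiff.Spg, 8.42, 8.53 and 9.77 in Diff.Spg, and 2.73, 8.73 and 3.28 in PreL. The later libraries held 2.15, 8.24 and 1.54 CPM in LZ, 123, 127 and 122 in PD, and 219, 194 and 178 in RS. PreL replicate 2 and LZ replicate 2 were high for their groups, and every PD and RS library lay above all earlier ones. Ift43 had the largest rise of any member in PD against LZ (log2 fold change 4.95, SE 0.484, adjusted p = 5.59e-08), and without PreL replicate 2 and LZ replicate 2 the log2 fold change was 6.06. In RS against PD its log2 fold change of 0.67 was not called (adjusted p = 0.161), but it was called higher without those libraries (0.67, adjusted p = 3.09e-05).

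Ttc21b (ENSMUSG00000034848, chr2:66184327-66256617, minus strand), which is needed for retrograde transport, had 96.3, 92.7 and 92.5 CPM in Undiff.Spg, 100.3, 95.3 and 99.4 in Diff.Spg, and 81.3, 70.2 and 74.3 in PreL. Its later levels were 43.4, 39.7 and 30.8 CPM in LZ, 445, 481 and 389.9 in PD, and 269.9, 262 and 262 in RS. All 3 PD libraries were the highest, RS lay between PD and the rest, and LZ was lowest. It rose in PD (log2 fold change 3.53, SE 0.133, adjusted p = 3.68e-13) and fell in RS (log2 fold change -0.73, SE 0.1205, adjusted p = 5.65e-05). Wdr35 (ENSMUSG00000066643, chr12:8973892-9028847, plus strand), whose protein is needed for entry of membrane proteins into the cilium, started at 32.4, 31.4 and 28.5 CPM in Undiff.Spg, 49.2, 45.9 and 45.3 in Diff.Spg, and 52.8, 59.3 and 50.9 in PreL. In the later populations it stood at 85.8, 86.4 and 86.3 CPM in LZ, 401, 424 and 359.7 in PD, and 426, 411 and 408 in RS. PD lay above all earlier libraries and overlapped with RS: it rose in PD (log2 fold change 2.19, SE 0.103, adjusted p = 4.5e-12) and was not called in RS (0.07, SE 0.0981).

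Wdr19 (ENSMUSG00000037890, chr5:65199696-65260415, plus strand), a scaffold subunit, had 31.96, 31.9 and 31.4 CPM in Undiff.Spg, 10.7, 9.83 and 9.84 in Diff.Spg, and 6.37, 8.13 and 4.86 in PreL. From LZ on the values were 16.1, 23.2 and 21.1 CPM in LZ, 132, 135 and 116 in PD, and 101, 108 and 113 in RS. It was lowest in PreL, and PD lay above all earlier libraries (log2 fold change 2.66, SE 0.164, adjusted p = 1.42e-10). Ift122 (ENSMUSG00000030323, chr6:115853470-115926699, plus strand), another scaffold subunit, had 69.8, 70.97 and 69.98 CPM in Undiff.Spg, 54.8, 55.8 and 55.8 in Diff.Spg, and 30.8, 58.6 and 41.1 in PreL. It then reached 117, 161 and 171 CPM in LZ, 659, 693 and 633 in PD, and 638, 631 and 667 in RS. LZ was already above every earlier library, PD was higher still (log2 fold change 2.15, SE 0.182, adjusted p = 9.35e-09), and RS against PD was not called at -0.04 (SE 0.175). Ift140 (ENSMUSG00000024169, chr17:25016085-25099495, plus strand), the largest IFT-A scaffold and the member with the highest CPM, averaged 91.6 ± 24.6 CPM in LZ, 1594 ± 71.4 in PD and 1378 ± 80.8 in RS (SD, n = 3 each). It peaked in PD (log2 fold change 4.12, SE 0.1598, adjusted p = 4.81e-13), and RS against PD was not called at -0.21 (SE 0.141). Ift43 and Wdr35 peaked in RS by mean and the other 4 subunits in PD.

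**Figure D3:**
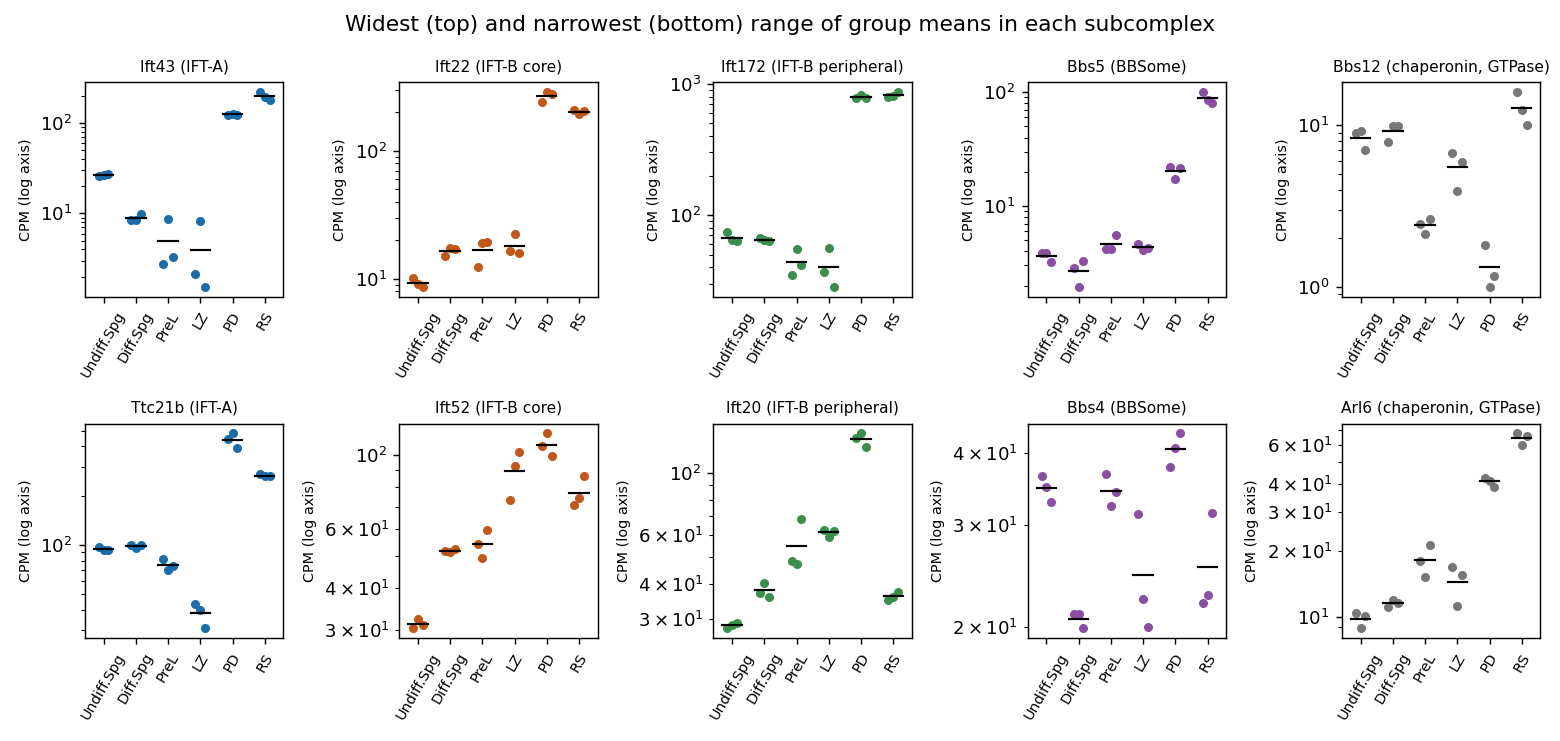
CPM in each of the 18 libraries on a log axis, populations in stage order, for the member with the widest range of group means in each complex (top) and the one with the narrowest (bottom); points are libraries and bars group means. Every top panel but that of Bbs12 steps up between LZ and PD, and Bbs12 is lowest in PD.

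The IFT-B core rose almost as a whole in PD, 9 of 10 genes with a median log2 fold change of 2.03, and then diverged in RS, where 3 rose and 6 fell. Ift22 (ENSMUSG00000007987, chr5:136908150-136915404, plus strand), a small GTPase of the core, had 10.05, 9.06 and 8.63 CPM in Undiff.Spg, 15.2, 17.4 and 17.1 in Diff.Spg, and 12.3, 19.00 and 19.4 in PreL. Afterwards it held 16.3, 22.2 and 15.8 CPM in LZ, 243, 288 and 279 in PD, and 209, 194 and 204 in RS. PD was highest and RS next, without overlap; the rise in PD was 3.90 (SE 0.1803) on the log2 scale (adjusted p = 3.91e-12) and the change in RS was -0.41 (SE 0.159), a call lost with RLE scaling and when PD replicate 2, PD replicate 3 or RS replicate 2 was left out (-0.43 to -0.45). Ift27 (ENSMUSG00000016637, chr15:78159463-78174107, minus strand), a second small GTPase, which links the train to BBSome exit from the cilium, had 11.5, 10.1 and 9.74 CPM in Undiff.Spg, 13.9, 14.95 and 14.4 in Diff.Spg, and 7.39, 5.77 and 10.4 in PreL. The later values were 3.22, 4.65 and 3.304 CPM in LZ, 74.2, 80.5 and 61.2 in PD, and 49.8, 49.9 and 45.4 in RS. LZ was lowest, PD highest, and the change in PD (log2 fold change 4.27, SE 0.207, adjusted p = 6.96e-12) was one of the 3 largest.

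Ift52 (ENSMUSG00000017858, chr2:163017354-163046141, plus strand), a central scaffold, had the narrowest range of the core. It had 30.5, 32.4 and 31.1 CPM in Undiff.Spg, 51.9, 51.3 and 52.3 in Diff.Spg, and 54.4, 49.2 and 59.6 in PreL. From LZ it went on at 73.1, 92.8 and 102 CPM in LZ, 106, 116 and 99.3 in PD, and 71.1, 74.1 and 86.3 in RS. LZ and PD overlapped, and its log2 fold change of 0.26 in PD was not called (adjusted p = 0.0641); it fell in RS by 0.47 (SE 0.127) on the log2 scale. Ttc26 (ENSMUSG00000056832, chr6:38381469-38427647, plus strand), a subunit known to be needed for motility of cilia in zebrafish and mouse, had 6.78, 8.59 and 9.88 CPM in Undiff.Spg, 3.79, 4.21 and 3.49 in Diff.Spg, and 5.69, 8.68 and 5.93 in PreL. In later stages these were 39.6, 35.9 and 36.05 CPM in LZ, 100.001, 113 and 84.5 in PD, and 44.8, 43.1 and 47.5 in RS. The values climbed in LZ and again in PD, and RS returned to near LZ: it rose in PD (log2 fold change 1.41, SE 0.163, adjusted p = 4.62e-07) and fell in RS (log2 fold change -1.13, SE 0.163, adjusted p = 1.29e-05).

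Ttc30a1 and Ttc30b are near-identical paralogs of a core subunit, and the way reads were shared between them and Ttc30a2 is not given, so their separate levels are uncertain. Ttc30a1 (ENSMUSG00000075271, chr2:75978247-75981967, minus strand) had 8.28, 6.04 and 8.35 CPM in Undiff.Spg, 3.72, 4.48 and 5.79 in Diff.Spg, and 2.62, 2.91 and 2.29 in PreL. Later it had 5.67, 5.14 and 6.09 CPM in LZ, 64.5, 70.5 and 48.2 in PD, and 6.36, 5.73 and 9.41 in RS. PD stood alone, with RS back near LZ: it rose in PD (log2 fold change 3.44, SE 0.2197, adjusted p = 2.28e-10) and had the largest fall of any member in RS (log2 fold change -3.08, SE 0.218, adjusted p = 4.45e-09). Ttc30b (ENSMUSG00000075273, chr2:75935849-75938585, minus strand) had 2.28, 2.75 and 1.67 CPM in Undiff.Spg, 2.25, 2.05 and 2.24 in Diff.Spg, and 2.22, 1.703 and 2.21 in PreL. Its values from LZ on were 0.767, 1.48 and 0.587 CPM in LZ, 14.6, 15.1 and 14.1 in PD, and 20.1, 18.5 and 17.6 in RS. Every RS library lay above every PD library, yet that change was small; the rise in PD was 3.93 (SE 0.2601) on the log2 scale (adjusted p = 3.54e-10), and RS against PD was not called at 0.36 (SE 0.203), though RLE scaling called it.

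Ift81 and Ift74 form the module of the core that binds tubulin. Ift81 (ENSMUSG00000029469, chr5:122550204-122614518, minus strand) had 36.5, 34.6 and 35.1 CPM in Undiff.Spg, 27.6, 27.4 and 27.9 in Diff.Spg, and 30.1, 38.00 and 33.6 in PreL. It continued with 85.1, 88.8 and 93.9 CPM in LZ, 156, 144 and 145 in PD, and 357, 337 and 294 in RS. Each of the last 3 populations stood above the one before; the gene rose in PD (log2 fold change 0.73, SE 0.106, adjusted p = 6.81e-06) and more in RS (log2 fold change 1.15, SE 0.107, adjusted p = 9.53e-08). Ift74 rose in both steps too, by 1.30 (SE 0.121) in PD and 0.69 (SE 0.119) in RS, to a peak of 521 ± 55.5 CPM in RS (SD, n = 3). Ift88, whose loss shortens cilia, rose by 0.42 (SE 0.139) in PD and 0.37 (SE 0.138) in RS, where it peaked; both calls were lost with total library size scaling, and when any of 7 and 6 single libraries was left out (down to 0.12 in PD and 0.18 in RS). Ift46, another core subunit, peaked in PD, with a rise of 2.65 (SE 0.132) followed by -1.21 (SE 0.126) in RS.

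All 6 IFT-B peripheral genes rose in PD, with a median log2 fold change of 1.79, and in RS 3 rose and 2 fell. Ift172 (ENSMUSG00000038564, chr5:31253277-31291116, minus strand), the large subunit near the tip of the train and its link to IFT-A, had 73.8, 65.1 and 63.02 CPM in Undiff.Spg, 66.7, 64.2 and 63.4 in Diff.Spg, and 35.02, 55.3 and 41.6 in PreL. The other libraries gave 36.9, 55.7 and 28.4 CPM in LZ, 785, 822 and 783 in PD, and 794, 808 and 865 in RS. PD and RS overlapped far above the rest, and PreL replicate 2 and LZ replicate 2 were the highest of their groups; the rise in PD (log2 fold change 4.30, SE 0.218, adjusted p = 1.17e-11) was followed by an RS change of 0.05 (SE 0.1897) that was not called. Ift20 (ENSMUSG00000001105, chr11:78536361-78541737, plus strand), the subunit that also works at the Golgi, had 27.9, 28.6 and 29.2 CPM in Undiff.Spg, 37.4, 40.5 and 36.2 in Diff.Spg, and 48.6, 47.4 and 68.6 in PreL. Onward it had 62.7, 59.2 and 61.97 CPM in LZ, 133, 138 and 123 in PD, and 35.1, 35.9 and 37.6 in RS. PD was highest, and RS lay below LZ: Ift20 rose in PD (log2 fold change 1.10, SE 0.128, adjusted p = 4.98e-07) and fell in RS (log2 fold change -1.86, SE 0.132, adjusted p = 4.45e-09).

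Ift80 (ENSMUSG00000027778, chr3:68892499-69004570, minus strand), a subunit known from skeletal ciliopathies, had 31.8, 26.7 and 29.6 CPM in Undiff.Spg, 21.1, 22.6 and 24.9 in Diff.Spg, and 48.6, 56.1 and 46.8 in PreL. The last 3 populations held 104, 90.3 and 99.8 CPM in LZ, 363, 378 and 299.9 in PD, and 48.1, 55.4 and 100.4 in RS. RS replicate 3 stood well above the other RS libraries, though below every PD library. It rose in PD (log2 fold change 1.82, SE 0.207, adjusted p = 3.67e-07) and fell in RS (log2 fold change -2.35, SE 0.211, adjusted p = 6.87e-08), and the fall was 2.81 on the log2 scale without RS replicate 3. Ift57 (ENSMUSG00000032965, chr16:49699233-49765126, plus strand), whose protein anchors kinesin-2 to the train, had 11.4, 12.96 and 11.5 CPM in Undiff.Spg, 9.68, 7.34 and 8.34 in Diff.Spg, and 7.902, 9.501 and 10.2 in PreL. Next came 9.81, 12.7 and 14.4 CPM in LZ, 95.7, 93.5 and 88.9 in PD, and 191, 159 and 164 in RS. RS was highest and PD next, and it rose in both steps, by 2.91 (SE 0.157) in PD (adjusted p = 2.52e-11) and by 0.89 (SE 0.144) in RS (adjusted p = 4.67e-05).

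Traf3ip1, a microtubule-binding subunit, rose by 1.77 (SE 0.111) in PD and 0.81 (SE 0.108) in RS, and Cluap1, which is needed for cilium formation, by 0.44 (SE 0.113) and 0.54 (SE 0.112); both peaked in RS. Annotated exons of a gene on the same strand, Gm20695, cover 22.4% of those of Cluap1, so its counts are uncertain, and its call in PD was lost with total library size scaling and when any 1 PD or RS library was left out (down to 0.22).

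The 6 BBSome subunits that the symbol rule took in all rose in PD, with a median log2 fold change of 1.30. In RS Bbs5 and Bbs7 rose while Bbs1, Bbs2, Bbs4 and Bbs9 fell. The opposite changes nearly cancelled in the sum of these 6, which was 187 to 200.2 CPM in LZ, 437 to 467 in PD and 414 to 427 in RS. Ttc8, a subunit outside the rule, is given further below. Bbs5 (ENSMUSG00000063145, chr2:69647171-69667571, plus strand), the subunit that binds phosphoinositides in membranes, had 3.85, 3.83 and 3.200 CPM in Undiff.Spg, 2.88, 1.94 and 3.300 in Diff.Spg, and 4.15, 4.17 and 5.57 in PreL. It later had 4.68, 4.09 and 4.26 CPM in LZ, 22.2, 17.3 and 21.4 in PD, and 100.4, 86.2 and 80.3 in RS. RS was more than 3 times every PD library. Bbs5 rose in PD (log2 fold change 2.22, SE 0.185, adjusted p = 6.91e-09) and again in RS (log2 fold change 2.13, SE 0.169, adjusted p = 1.59e-08). Bbs7 (ENSMUSG00000037325, chr3:36573142-36613477, minus strand), a propeller-domain subunit of the core, had 20.03, 16.7 and 18.6 CPM in Undiff.Spg, 9.05, 11.1 and 9.34 in Diff.Spg, and 8.53, 14.1 and 9.21 in PreL. Then followed 41.9, 51.2 and 58.1 CPM in LZ, 131, 119 and 129 in PD, and 206, 205 and 177 in RS. It climbed without overlap through LZ, PD and RS, by 1.32 (SE 0.169) in PD and 0.63 (SE 0.166) in RS, the second call being lost with total library size scaling.

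Bbs4 (ENSMUSG00000025235, chr9:59321990-59353508, minus strand), a subunit that binds pericentriolar material, had 36.4, 34.9 and 32.8 CPM in Undiff.Spg, 21.1, 21.1 and 19.9 in Diff.Spg, and 36.7, 32.3 and 34.2 in PreL. The later populations had 31.4, 22.3 and 20.04 CPM in LZ, 37.7, 40.7 and 43.2 in PD, and 21.99, 22.7 and 31.4 in RS. It varied least of the 6 BBSome members. It rose in PD (log2 fold change 0.72, SE 0.162, adjusted p = 0.000582, not called with total library size scaling) and fell in RS (log2 fold change -0.67, SE 0.163, adjusted p = 0.00176). In RS against Undiff.Spg it was called lower at -0.45 (SE 0.162), a call lost with RLE scaling (-0.26, adjusted p = 0.102) and with DESeq2 (-0.26, adjusted p = 0.129). Bbs1 (ENSMUSG00000006464, chr19:4886878-4906628, minus strand), the subunit that Arl6 binds, had 10.8, 10.8 and 13.8 CPM in Undiff.Spg, 10.5, 9.02 and 13.4 in Diff.Spg, and 28.3, 18.5 and 19.5 in PreL. It went on to 34.6, 27.1 and 35.98 CPM in LZ, 65.8, 73.6 and 57.9 in PD, and 16.2, 14.8 and 28.9 in RS. RS replicate 3 was again the highest of its group, yet below every PD library. The fall in RS (log2 fold change -1.71, SE 0.243, adjusted p = 1.12e-05) was 2.15 on the log2 scale without that library, and in PD it rose by 1.01 (SE 0.235). Bbs2, a partner of Bbs7 in the core, rose by 1.35 (SE 0.195) in PD and fell by 1.02 (SE 0.194) in RS, and Bbs9, another propeller-domain subunit, rose by 1.28 (SE 0.114) and fell by 1.27 (SE 0.114); both peaked in PD.

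The assembly factors and the GTPase went 4 separate ways. Bbs12 (ENSMUSG00000051444, chr3:37312554-37321453, plus strand), a chaperonin-like factor, had 8.94, 9.198 and 7.03 CPM in Undiff.Spg, 7.93, 9.93 and 9.84 in Diff.Spg, and 2.44, 2.14 and 2.64 in PreL. In the later libraries it had 6.75, 3.95 and 5.95 CPM in LZ, 1.83, 1.001 and 1.17 in PD, and 16.05, 12.4 and 10.01 in RS. PD was lowest, with PreL next, and RS was highest, RS replicate 3 being level with the top Diff.Spg libraries: it fell in PD (log2 fold change -2.04, SE 0.289, adjusted p = 5.1e-06) and then had the largest rise of any member in RS (log2 fold change 3.25, SE 0.282, adjusted p = 4.48e-08). Mkks (ENSMUSG00000027274, chr2:136873780-136891389, minus strand), its chaperonin-like relative, had 32.2, 30.5 and 28.8 CPM in Undiff.Spg, 23.9, 26.5 and 26.1 in Diff.Spg, and 19.4, 15.98 and 26.5 in PreL. After that it had 20.5, 14.4 and 18.1 CPM in LZ, 9.698, 10.6 and 7.23 in PD, and 3.13, 4.08 and 3.02 in RS. It was the 1 member to lose level at both steps, falling in PD (log2 fold change -0.94, SE 0.196, adjusted p = 0.000315) and in RS (log2 fold change -1.44, SE 0.226, adjusted p = 3.3e-05). Exons of AL731706.1, on the same strand, cover 29.3% of those of Mkks, so its counts are uncertain.

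Arl6 (ENSMUSG00000022722, chr16:59612949-59639391, minus strand), the GTPase that brings the BBSome to membranes, had 10.5, 8.93 and 10.1 CPM in Undiff.Spg, 11.1, 11.9 and 11.6 in Diff.Spg, and 17.97, 15.2 and 21.3 in PreL. It had 16.8, 11.2 and 15.5 CPM in LZ, 42.7, 41.4 and 38.9 in PD, and 67.6, 59.7 and 65.8 in RS. PD stood above LZ, and RS above PD, without overlap; it rose in PD (log2 fold change 1.5, SE 0.152, adjusted p = 9.02e-08) and in RS (log2 fold change 0.65, SE 0.146, adjusted p = 0.000975). Bbs10, the third chaperonin-like factor, peaked in PD, where it rose by 2.02 (SE 0.141), and fell by 0.51 (SE 0.134) in RS.

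Fewer members were called in the earlier steps than in PD against LZ or RS against PD, and the shares of all genes called were smaller at these earlier steps too. In Diff.Spg against Undiff.Spg, the step into differentiation, 6 members rose (Ift22, Ift52, Wdr35, Traf3ip1, Ift27 and Ift20) and 10 fell, where 20.4% of all genes were higher and 23% lower. Wdr19 (log2 fold change -1.65, SE 0.163, adjusted p = 5.04e-07), Ift43 (log2 fold change -1.58, SE 0.421, adjusted p = 0.00566) and Ttc26 (log2 fold change -1.13, SE 0.186, adjusted p = 0.000104) fell most, and each fell by at least 2-fold; no other member did, and none rose by as much, where 9.51% of all genes rose and 14.8% fell at least 2-fold. Ift22 (0.84, SE 0.1702), Ift52 (0.73, SE 0.128) and Wdr35 (0.60, SE 0.1001) rose most. IFT-A was thus mixed at this step, with Wdr35 higher and Wdr19 and Ift43 lower, and every Diff.Spg library lay outside the Undiff.Spg range for these 3. The other 7 that fell were Ift46, Ift57, Ift74, Ift81, Ttc30a1, Bbs4 and Bbs7. The calls of Ift20, Ift27, Ift57 and Ttc30a1 were lost when single Undiff.Spg or Diff.Spg libraries were left out (adjusted p up to 0.146, for Ift27), and that of Ift27 also without LZ replicate 3 or any 1 PD or RS library. Ift122 was not called at -0.34 (SE 0.177), but was called lower without PreL replicate 2 and LZ replicate 2 (-0.34, adjusted p = 0.0342).

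In PreL against Diff.Spg, 12 members rose and 7 fell, where 20.4% of all genes were higher and 24.8% lower. Ift80 (log2 fold change 1.15, SE 0.207, adjusted p = 0.000279), Bbs1 (log2 fold change 1.01, SE 0.243, adjusted p = 0.00298) and Ttc26 (log2 fold change 0.82, SE 0.186, adjusted p = 0.00186) rose most. Bbs12 fell most (log2 fold change -1.94, SE 0.247, adjusted p = 9.22e-06), then Ift27 (-0.89, SE 0.185) and Ttc30a1 (-0.83, SE 0.237). At least 2-fold changes were 2 upward and 1 downward, where 9.2% and 16.5% of all genes had one. Of the BBSome, Bbs1, Bbs4, Bbs5 and Bbs9 rose and none fell. Ift43 was not called at -0.84 (SE 0.4401), but without PreL replicate 2 and LZ replicate 2 it fell by 1.57 on the log2 scale (adjusted p = 5.5e-07). Without the same libraries Ift122, not called at -0.35 (SE 0.177), fell too (-0.63, adjusted p = 0.00161), and Ift81 lost its call at 0.20 (adjusted p = 0.185). Leaving out single Diff.Spg or PreL libraries ended the calls of Ift81, Ift172, Bbs9, Ttc30a1 and Ttc21b (adjusted p up to 0.166, for Ift81).

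In LZ against PreL, the entry into meiotic prophase, 15 members rose and 4 fell, where 24.3% of all genes were higher and 23.2% lower. Ttc26 (log2 fold change 2.45, SE 0.176, adjusted p = 2.49e-08), Bbs7 (log2 fold change 2.25, SE 0.178, adjusted p = 5.85e-08) and Ift122 (log2 fold change 1.78, SE 0.181, adjusted p = 6.46e-07) rose most, ahead of Wdr19 (1.63, SE 0.167), Ift88 (1.63, SE 0.143) and Ift81 (1.40, SE 0.108). Ttc30b (-1.09, SE 0.285), Ift27 (-1.06, SE 0.203), Ttc21b (-0.99, SE 0.122) and Bbs4 (-0.49, SE 0.161) fell. Of these changes, 9 upward and 2 downward were at least 2-fold, where 14.6% and 13.1% of all genes had one. The IFT-B core held 6 of the 15, so part of it was higher in LZ than in PreL while Ift140 (-0.09, SE 0.141) and Ift172 (-0.12, SE 0.192) were not called. Ttc30b, Ift27 and Ttc21b had fallen in LZ and rose in PD by over 3 on the log2 scale. Without PreL replicate 2 and LZ replicate 2 the changes in LZ were -1.70 for Ttc30b and -1.43 for Ift27, and without LZ replicate 2 alone 7 members fell, Ift43, Ift46, Ift140 and Ift172 in place of Bbs4. Without both libraries Ift43, not called at -0.31 (SE 0.466), fell (-0.70, adjusted p = 0.0209), and so did Ift46 (-0.43, adjusted p = 0.0221, against -0.30 with all libraries), while Bbs4 at -0.47 (adjusted p = 0.0556) and Ift57 at 0.43 (adjusted p = 0.0846) lost their calls. Bbs4 and Ift57 lost their calls without 3 and 9 single libraries (adjusted p up to 0.338, for Ift57 without LZ replicate 3).

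Over the whole course, RS against Undiff.Spg, 29 members rose and 2 fell, Mkks and Bbs4, where 42.2% of all genes were higher and 46.5% lower. The call of Bbs4 was lost in 2 of 26 alternative fits, RLE scaling and DESeq2, as given above, and that of Mkks in none. For 29 members every RS library lay above every Undiff.Spg library, and for 2 every RS library lay below, where 42.8% and 47.5% of all genes did. With total library size scaling 22 rose and 5 fell, and Ift20 and Bbs9 were called lower. The median log2 fold change was 2.28 over the members and -0.261 over all genes; total library size scaling moves the median of all genes to -1.06. Bbs5 (log2 fold change 4.61, SE 0.194, adjusted p = 8.67e-13), Ift22 (log2 fold change 4.45, SE 0.187, adjusted p = 8.41e-13) and Ift57 (log2 fold change 3.84, SE 0.162, adjusted p = 8.95e-13) rose most. At least 2-fold, 24 members rose and 1 fell, where 37.3% and 41.9% of all genes did. Mkks fell by 3.17 (SE 0.219) on the log2 scale. Ttc30a1, back near its first level, was not called at -0.07 (SE 0.2198). The smallest rises lost their calls in fits where the median of all genes moved too. Ift20, Bbs2, Bbs9 and Bbs12 did so when any 1 PD or RS library or LZ replicate 3 was left out. Bbs1 did so in the same fits except that without RS replicate 2. The median over all genes was -0.566 to -0.682 in these fits, against -0.261 with all libraries. The part of this shift in the lost calls was not tested. Leaving out single Undiff.Spg libraries also ended the calls of Ift20, Bbs2 and Bbs12. Without RS replicate 3 the log2 fold change of Bbs1 was 0.06 and that of Ift80 0.48, where all libraries gave 0.77 and 1.21, and Ttc30a1 was called lower at -0.65.

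Levels per length of exon differed widely between subunits of the same particle. The median member had 7.09 CPM per kb in LZ, 25.3 in PD and 28.0 in RS. In PD, Ift140 led at 191 CPM per kb, followed by Ift74 (122), Ift172 (120.4) and Ift20 (86.1), while Bbs12 stood at 0.548. In RS, Ift74 led at 196 CPM per kb, ahead of Ift140 (165), Ift172 (124) and Ift43 (119), and Mkks stood at 1.06. Within IFT-A in RS the span ran from 165 for Ift140 to 9.52 for Wdr19. Among the BBSome members Bbs5 and Bbs7 stood level at 36.4, and the span ran down to 2.599 for Bbs1. Exon length is that of all annotated exons of a gene merged, which is longer than the transcript a cell makes where isoforms differ.

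**Figure D4:**
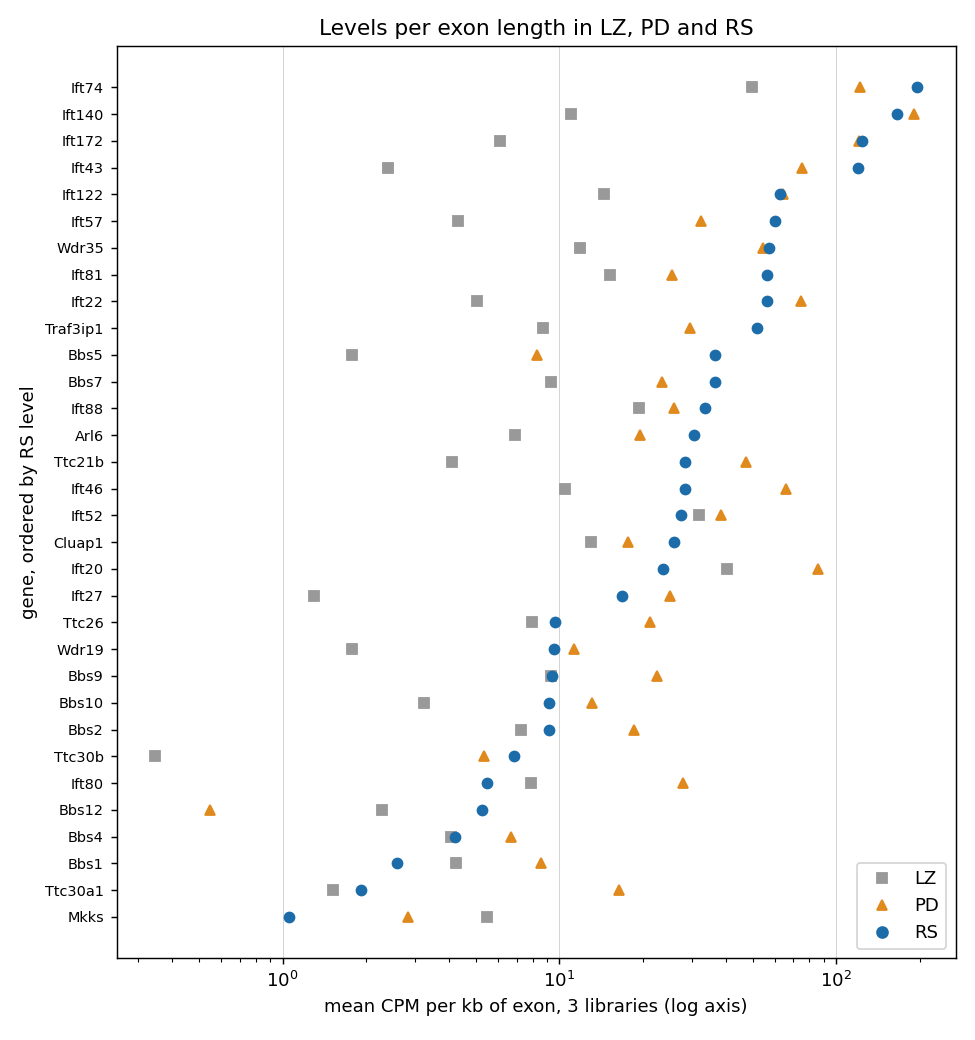
Mean CPM per kb of exon over 3 libraries, on a log axis, in LZ, PD and RS for each of the 32 tested members, ordered down the page by the RS level. Ift74, Ift140 and Ift172 lead in RS, where the members span 1.06 to 196 CPM per kb.

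Genes that work with the particles were mostly higher in PD too. Of 14 IFT motor genes, 11 rose and 3 fell in PD (median log2 fold change 1.68), where 42.1% of all genes were higher and 40.8% lower. Dynlrb2, a dynein light chain, rose most (log2 fold change 5.60, SE 0.671, adjusted p = 7.07e-07), to 88.1, 90.4 and 91.3 CPM in PD against 0.537, 3.87 and 1.03 CPM in LZ, and by 6.82 without PreL replicate 2 and LZ replicate 2. Its paralog Dynlrb1 fell most (log2 fold change -6.10, SE 0.279, adjusted p = 3.42e-12), to 3.48, 2.64 and 1.86 CPM in PD against 202, 161 and 189 CPM in LZ. The pair ran in opposite directions with no overlap between groups. Of the kinesin-2 subunits, Kif3b rose by 4.34 (SE 0.211) and Kif3c fell by 2.65 (SE 0.228). In RS against PD, 5 motor genes rose and 3 fell, where 30.3% of all genes were higher and 28.6% lower. Kif17 (3.45, SE 0.201), a homodimeric kinesin-2, and Dynll2 (2.86, SE 0.161) led upward. Wdr34 (-1.97, SE 0.212), an intermediate chain of dynein-2, and Kif3c (-1.03, SE 0.3198) led downward.

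Of 12 partners or subunits outside the symbol rule, 8 rose and 3 fell in PD (median 1.60), beside 42.1% and 40.8% of all genes. Ttc30a2, the third paralog of the Ttc30 subunit, rose by 6.47 (SE 0.677), to 211, 223 and 208 CPM in PD against 0.537, 5.92 and 0.661 CPM in LZ, and had 249.7, 249 and 225 CPM in RS. LZ replicate 2 was the high LZ library, and without it and PreL replicate 2 the log2 fold change was 8.45, and without LZ replicate 3 it was 5.84. Per length its level in RS was 99.2 CPM per kb, beside 1.92 for Ttc30a1 and 6.85 for Ttc30b, subject to the same doubt about shared reads. Arl3, a GTPase that releases lipidated cargo, rose by 5.01 (SE 0.182) in PD, while Hspb11, the partner of Ift27 in the core, fell by 1.92 (SE 0.209) and Tulp3, an adaptor of IFT-A, by 1.52 (SE 0.2395). Ift27 and Hspb11 thus moved in opposite directions in PD. In RS, 4 rose (2 with total library size scaling, or without any 1 of PD replicates 1 and 2 and RS replicates 1 and 2) and 3 fell, beside 30.3% and 28.6% of all genes. Among them were Arl13b (3.21, SE 0.153), a ciliary membrane GTPase, and Rabl2 (1.23, SE 0.108), a GTPase that binds IFT-B, upward. Ttc8 (-3.29, SE 0.267), the BBSome subunit with another name, and Rab8a (-1.08, SE 0.1198) went downward.

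The transition zone, the gate at the cilium base, had 11 of 17 genes higher and 3 lower in PD (median 1.63), beside 42.1% and 40.8% of all genes. Nphp4 (5.07, SE 0.178) and B9d1 (4.97, SE 0.384) rose most, and Cc2d2a and Tmem17 (-0.88, SE 0.323) fell most. In RS, 9 rose and 4 fell, beside 30.3% and 28.6% of all genes. Cc2d2a and Cep290 (1.89, SE 0.182) led upward, and Mks1 (-2.35, SE 0.251) and Tmem67 (-1.08, SE 0.229) downward. Cc2d2a had 19, 12 and 13 reads in LZ, 0, 0 and 1 in PD and 6, 0 and 6 in RS, too few for a fold change to be read, and its call in RS was lost without PD replicate 1 or 2 or RS replicate 1 or 3 (adjusted p up to 0.0807).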

How the data were processed

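Per the labels' protocols, sorted germ cells gave RNA with a Qiagen kit and DNase treatment, and single-end libraries were read on a HiSeq 2500. The deposited values are the authors' whole-number read counts per gene, unscaled. The submitters' processing notes name GRCm38 with STAR 2.4.2a, HTSeq, cutadapt and DESeq2; neither annotation release nor strand setting is given there. Of 46603 gene IDs, 46005 were named from GENCODE M21 (GRCm38).

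Genes were kept by filterByExpr, TMM-scaled and modelled in edgeR 4.0.16 (R 4.3.3, glmQLFit, glmQLFTest, 2-sided) in 1 model of 6 groups. Benjamini-Hochberg adjustment ran over 18547 genes within each of 6 contrasts. The fit was also run on simulated counts with few genes changed, in RS only. Such counts cannot check the scaling of data where 99% of genes differ. The common biological coefficient of variation was 0.2025. Standard errors divide the size of the log2 fold change by the root of F. Depth was 11777947 to 16607462 counts per library. Replicates differed by 2.50 to 52.8 times the counting variance, so none were copies.

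Replicate numbers came from the labels. Deviations from group means correlated between same-numbered libraries at 0.228, 0.445 and 0.121 (PreL and Diff.Spg) and 0.455, 0.683 and 0.254 (LZ and PreL). The highest, 0.683, was that of PreL replicate 2 and LZ replicate 2, which shared raised PD markers. An alternative fit therefore took replicate number as a block over all 6 groups.

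Members, lists and markers were chosen with earlier results of these data known. Libraries are shown one by one for the widest- and narrowest-ranging member of each complex and the 3 largest rises and falls called in each contrast; in related lists, the 2 largest each way in the last steps are named. Some genes overlap others in exons. Alternatives were RLE or total-size scaling, other low-count filters, a 2-fold condition, a replicate block, left-out libraries, DESeq2 1.42.0 and pairwise fits.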

Additional observations from a re-analysis of the deposited data

How the results depend on the processing

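Among single genes and contrasts, 5555 of the alternative values kept their call, or stayed uncalled whatever their direction. A further 210 lost the call and 60 gained one. Another 6 turned direction where the main or the alternative fit called the gene. Turns of direction among uncalled values were not counted. In PD against LZ, calls changed for Cluap1, Ift52, Bbs4 and Ift88 under scaling, DESeq2 or left-out libraries, the 2-fold condition also removed Ift81 and Mkks, and Ift88os gained a lower call in the pairwise fit and 16 fits with libraries left out. In RS against Undiff.Spg, where 2 members were lower, RLE scaling and DESeq2 each gave 1, without Bbs4, and total library size scaling gave 5; there the log2 fold changes turned to -0.46 for Ift20, -0.034 for Bbs1, -0.31 for Bbs2, -0.34 for Bbs9 and -0.20 for Bbs12, beside the shift of all genes, and Ift20 ran from -0.019 (without RS replicate 3) to 0.35 when single libraries were left out. In LZ against PreL, 7 members instead of 4 were lower with total library size scaling, and 3 to 7 with single libraries left out. With at least 2-fold required, the counts higher and lower were 0 and 3 in Diff.Spg against Undiff.Spg, 2 and 1 in PreL against Diff.Spg, 9 and 2 in LZ against PreL and 3 and 9 in RS against PD, and 1 was lower in both PD against LZ and RS against Undiff.Spg, since fewer members reach that size. The same condition left 1 transition zone gene lower in PD, and in RS 3 motor genes and 2 partners higher and 2 transition zone genes lower; total library size scaling left 2 partners higher in RS, and leaving out single libraries 2 to 4. The causes of the other changes were not tested. With the replicate block, 5 members instead of 6 were higher in Diff.Spg against Undiff.Spg, Ift27 losing its call. No other call of a member changed, PreL against Diff.Spg and LZ against PreL included. Members below about 5 CPM, such as Ttc30b, Bbs12 and Ift88os, are limited by depth.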
